A study of Mus musculus with 10 samples.

Results

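The genes for 10 amino acid transporters of the cell surface were followed in RAW264.7, a line of macrophage-like mouse cells established from a virus-induced tumour. They were Slc3a2, Slc7a5, Slc7a6, Slc7a11, Slc7a1, Slc7a2, Slc1a4, Slc1a5, Slc38a1 and Slc38a2, chosen by symbol from the 22186 genes of the table, and all 10 were present. Wild-type cells of this line were kept for 24 h in medium with doxorubicin, an anthracycline drug that poisons topoisomerase II and so breaks DNA (5 libraries), or in medium alone (5 libraries), both in minimum essential medium with 10% fetal bovine serum. The sample titles give a dose of 10 nM, the series design corrects this to 100 nM, and the treatment protocol's dilution works out at 1000 nM, so no dose is used below. Dimethyl sulfoxide is named as the solvent of doxorubicin, and the labels do not say whether the medium cultures received it. RNA was extracted well by well, but whether each library is a culture of its own is not stated, and the p-values below therefore cover only the spread between these samples, which may be technical. The comparison asks how the mRNA of these transporters differed with doxorubicin.

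Cells cannot make the essential amino acids and take up many others through carrier proteins of the SLC families. SLC3A2, also called CD98 or 4F2hc, is a heavy chain that carries no amino acid itself but brings light chains to the membrane, among them SLC7A5 (LAT1, large neutral amino acids), SLC7A6 (y+LAT2) and SLC7A11 (xCT, cystine uptake in exchange for glutamate). SLC7A1 and SLC7A2 carry cationic amino acids such as arginine, which macrophages use to make nitric oxide and ornithine. SLC1A4 and SLC1A5 exchange neutral amino acids such as serine and glutamine, and SLC38A1 and SLC38A2 bring in glutamine and alanine together with sodium. Many of these genes are induced by the transcription factor ATF4 when amino acids are short, through C/EBP-ATF response elements (CARE), and Slc7a11 is also known as a target of NRF2 and as a gene repressed by p53.

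Promoter windows of RefSeq (GRCm38.p6, 250 bases before to 50 bases after the start) were at hand for 6 of the 10 genes: Slc7a11, Slc3a2, Slc7a1, Slc7a6, Slc1a4 and Slc38a2. The CARE core TGATGNAA was searched on both strands, with N for any base. Of the 6 genes, Slc7a11 and Slc1a4 held it, and their windows are shown with the matches in capitals. Slc3a2, Slc7a1, Slc7a6 and Slc38a2 did not hold it. Whether a match bears on the mRNA level was not tested. The Slc7a11 window lies at chr3:50443564-50443863 on the minus strand and the Slc1a4 window at chr11:20332664-20332963 on the minus strand.
Slc7a11: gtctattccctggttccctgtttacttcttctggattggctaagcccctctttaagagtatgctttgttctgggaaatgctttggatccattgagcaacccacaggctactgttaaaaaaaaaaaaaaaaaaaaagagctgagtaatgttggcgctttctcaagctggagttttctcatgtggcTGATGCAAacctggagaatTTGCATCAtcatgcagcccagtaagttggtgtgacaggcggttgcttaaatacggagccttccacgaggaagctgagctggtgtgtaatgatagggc
Slc1a4: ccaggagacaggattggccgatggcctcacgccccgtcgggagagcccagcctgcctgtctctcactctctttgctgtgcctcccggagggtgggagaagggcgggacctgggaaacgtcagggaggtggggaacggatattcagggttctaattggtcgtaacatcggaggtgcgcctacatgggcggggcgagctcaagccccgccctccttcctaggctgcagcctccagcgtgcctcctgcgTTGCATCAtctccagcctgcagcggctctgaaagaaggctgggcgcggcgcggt
In the Slc7a11 window the core stood once on each strand, from -66 to -59 and from -47 to -40 relative to the start base counted as 0. In the Slc1a4 window it stood on the reverse strand from -4 to 3, across the start. It was present in 3.969% of all 32851 promoter windows of this length. The antioxidant response element core TGACNNNGC stood in windows of Slc7a1, Slc7a6 and Slc38a2 (12.39% of all windows), and the E-box CACGTG in none of the windows of the 6 genes (7.15% of all windows).

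The deposited values are FPKM, fragment counts scaled to transcript length and to the size of the library, and the depth of the libraries is unknown. FPKM summed to between 338293 and 356111 per library. The number 1 libraries of both groups were unlike the other 8: Pearson correlations of log2(FPKM + 1) across tested genes between a number 1 library and another ran from 0.937 to 0.982, against 0.976 to 0.998 among numbers 2 to 5. Numbers 2 with 3 and 4 with 5 also resembled each other, so each result is given within numbers and with a fit that has the replicate number as a block. Of 10 macrophage markers 9 averaged at least 1 FPKM, and their summed level was 1516 to 1728 FPKM with doxorubicin and 1424 to 1585 FPKM in medium. Summed markers of T cells, B cells, fibroblasts, epithelium, endothelium and erythroid cells stayed at or below 0.632 FPKM in every library, and those of neutrophils at or below 1.74 FPKM. The p53 target Cdkn1a, a sign of the treatment, averaged 147 ± 37.3 FPKM with doxorubicin and 51.0 ± 4.87 FPKM in medium (SD, n = 5 each; limma adjusted p = 0.00466) and was higher with doxorubicin in all 5 numbers; the p53 targets Ccng1 and Mdm2 passed as well, with log2 differences of 1.56 and 0.99. In bulk RNA, fewer cells of a kind and less RNA per cell cannot be told apart.

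By FPKM, which is per length, Slc1a5 was the highest of the 10 genes in both groups, with 116 ± 10.1 FPKM in doxorubicin libraries and 131 ± 19.7 FPKM in medium libraries (SD, n = 5 each). Its level lay above 95.1% and 95.9% of the 9869 tested genes in these groups. With doxorubicin the order went on with Slc3a2 (93.4 ± 13.8), Slc38a2 (76.9 ± 19.5), Slc7a5 (76.3 ± 14.2), Slc7a1 (51.6 ± 9.62), Slc38a1 (30.9 ± 3.08), Slc7a6 (24.6 ± 3.62), Slc7a11 (7.77 ± 5.38), Slc7a2 (4.77 ± 0.435) and Slc1a4 (2.60 ± 1.53 FPKM). In medium it was Slc3a2 (125 ± 17.9), Slc7a5 (102 ± 31.8), Slc38a2 (86.5 ± 20.1), Slc7a1 (62.8 ± 15.8), Slc38a1 (31.2 ± 6.79), Slc7a6 (21.9 ± 4.23), Slc7a11 (6.59 ± 1.52), Slc1a4 (5.24 ± 2.67) and Slc7a2 (4.57 ± 0.207 FPKM). In both groups the libraries' ranges parted between Slc7a1 and Slc38a1 and between Slc7a6 and Slc7a11, and with doxorubicin also between Slc7a2 and Slc1a4. The ranges of the other neighbours overlapped, although Slc3a2 lay above Slc7a5 in all 5 medium libraries and Slc7a5 above Slc7a1 in all 5 doxorubicin libraries.

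**Figure D1:**
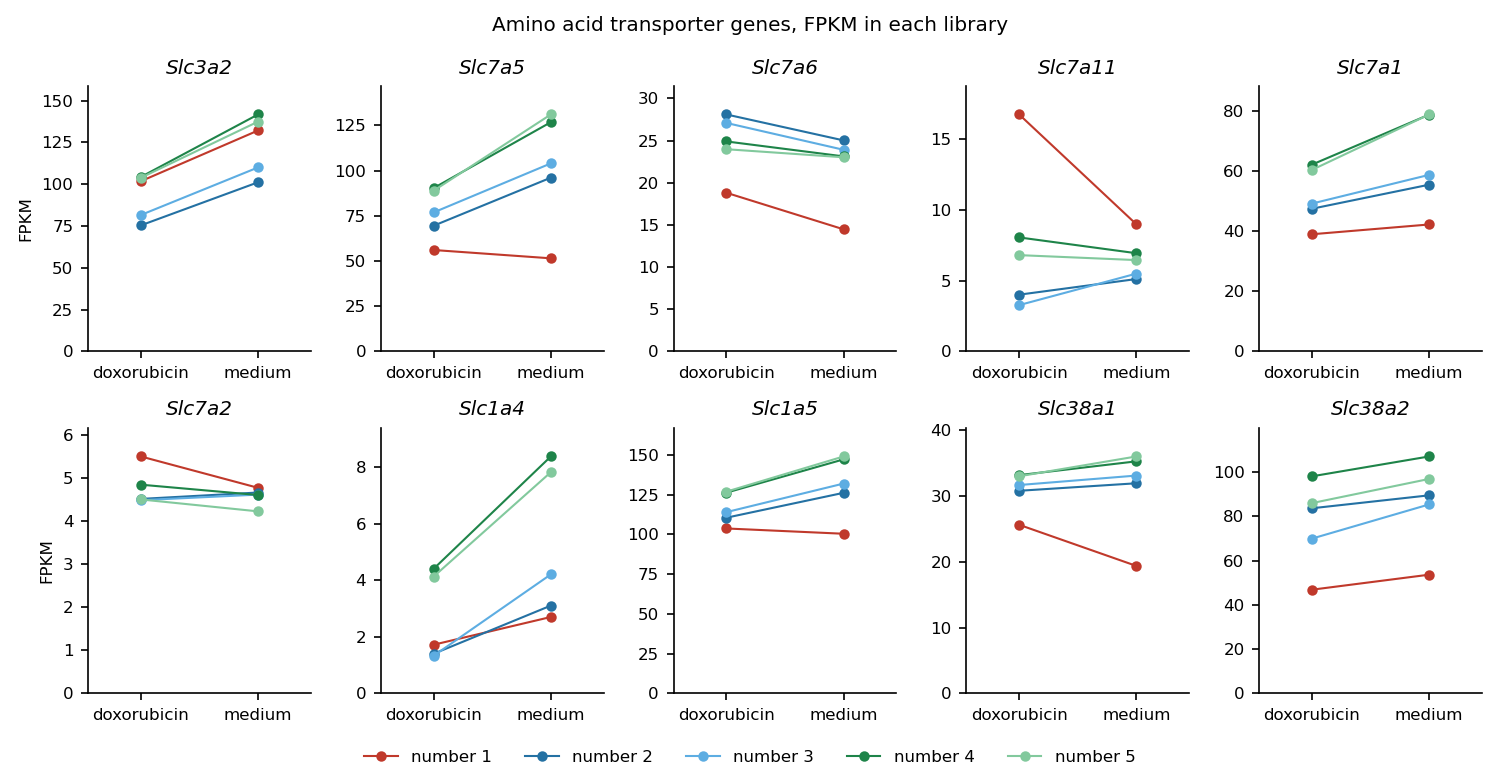
FPKM (y axis, from 0) of each of the 10 transporter genes in doxorubicin libraries (left) and medium libraries (right), 1 point per library, with a line joining libraries of the same replicate number. The lines of Slc3a2, Slc7a1, Slc1a4 and Slc38a2 run lower on the doxorubicin side in all 5 numbers, and the Slc7a11 lines cross.

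Without the block none of the 10 genes passed the adjusted threshold of 0.05 in limma, in either direction. That fit called 0.689% of the 9869 genes tested higher and 0.223% lower, and 2 of the 10 genes, Slc3a2 and Slc1a4, had an unadjusted p under 0.05, both lower, where 6.62% of all tested genes had one and were higher and 11.2% lower. The exact permutation test over the 10 libraries called 0 of all 9869 genes after adjustment, so its 0 of the 10 says nothing about these genes. Without both number 1 libraries and without the block 1 of the 10 was lower, Slc7a5, against 2.77% of all tested genes lower and 2.87% higher. With doxorubicin the blocked fit called 5 of the 10 lower, Slc3a2, Slc1a4, Slc7a1, Slc7a5 and Slc38a2, and 0 higher. It called 13.7% of all tested genes lower and 7.81% higher. With 1 number left out it called 2 to 6 of the 10 lower, against 3.78% to 18.4% of all tested genes. The median difference of the 10 genes on the log2(FPKM + 1) scale was -0.17, beside -0.03 over all genes tested. Centring each library on its median gene with the block turned the split over all genes from 771 higher and 1356 lower to 1420 higher and 828 lower. Under that setting 4 of the 10 were lower (8.39% of all tested genes) and 1, Slc7a6, was higher (14.4%). Within numbers, 4 of the 10 were lower in 5 of 5 (23.1% of tested genes), Slc3a2, Slc7a1, Slc1a4 and Slc38a2. None of the 10 had its doxorubicin libraries all on 1 side of the medium libraries, as 6.7% of the tested genes did.

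The heavy chain gene Slc3a2 had 102, 75.4, 81.6, 104 and 104 FPKM in doxorubicin libraries 1 to 5, against 132, 101, 110.1, 142 and 137 FPKM in medium libraries 1 to 5. Each doxorubicin library lay below the medium library of its number, although the ranges of the groups overlapped. The log2 difference, doxorubicin minus medium, was -0.41 (SE 0.13, limma adjusted p = 0.134; SE 0.04 and adjusted p = 0.000891 with the block, and between 0.000115 and 0.313 in the 26 settings tried). It was the most even of the 10 across numbers: -0.37, -0.42, -0.43, -0.44 and -0.40 in numbers 1 to 5. With the block it passed the threshold whichever number was left out, with an adjusted p no higher than 0.0116. These fits are no independent checks, because numbers 2 with 3 and 4 with 5 resembled each other.

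Slc7a5, the light chain LAT1 that carries leucine and other large neutral amino acids, had 56.1, 69.5, 76.8, 90.3 and 88.8 FPKM in doxorubicin libraries 1 to 5 and 51.5, 96.1, 104, 127 and 131 FPKM in medium libraries 1 to 5. Numbers 2 to 5 were lower with doxorubicin, by differences of -0.46, -0.43, -0.49 and -0.56 on the log2 scale, and number 1 was slightly higher (0.12). Over all 10 libraries the difference was -0.36 (SE 0.24, limma adjusted p = 0.454; 0.0280 with the block, and between 8.22e-05 and 0.713 in the settings tried). Without both number 1 libraries it was -0.48 and passed without the block as well (adjusted p = 0.0460). The blocked call was lost without number 2, 3, 4 or 5 (adjusted p from 0.0742 to 0.102).

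Slc7a6, a light chain for cationic and neutral amino acids, was the 1 gene of the 10 that lay higher with doxorubicin in every number. It had 18.8, 28.1, 27.1, 24.9 and 24.0 FPKM in doxorubicin libraries 1 to 5 and 14.5, 25.0, 23.9, 23.1 and 23.0 FPKM in medium libraries 1 to 5. The differences within numbers 1 to 5 ran from 0.06 to 0.36 on the log2 scale, with a mean of 0.17 (SE 0.15, limma adjusted p = 0.595; 0.0563 with the block). Without medium 1, the lowest library, the difference was 0.035 (limma adjusted p = 0.860 without the block, the highest of all settings). Without doxorubicin 1, the lowest of its group, it was 0.26. Without both number 1 libraries it was 0.12 (limma adjusted p = 0.209, or 0.0564 with the block). Of all tested genes, 13.2% were higher in 5 of 5 numbers. Slc7a6 passed with library median centring and the block (limma adjusted p = 0.0184). It also passed with joined sets (0.0218), where numbers 2 with 3 and 4 with 5 each shared 1 block. That fit still counted every library on its own, although libraries within a set resembled each other. It called 12.2% of tested genes higher and 19.9% lower.

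Slc7a11, the cystine carrier xCT that feeds glutathione synthesis, differed between numbers in direction. It had 16.7, 4.01, 3.27, 8.05 and 6.80 FPKM in doxorubicin libraries 1 to 5, against 8.97, 5.11, 5.49, 6.93 and 6.45 FPKM in medium libraries 1 to 5. The highest of all 10 values was that of doxorubicin 1 and the lowest that of doxorubicin 3. Within numbers the log2 differences were 0.83 in number 1, -0.29 and -0.61 in numbers 2 and 3, and 0.19 and 0.07 in numbers 4 and 5. Their mean of 0.04 (SE 0.33, limma adjusted p = 0.965; 0.885 with the block) passed no setting tried, and it became -0.16 without both number 1 libraries (adjusted p = 0.670).

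**Figure D2:**
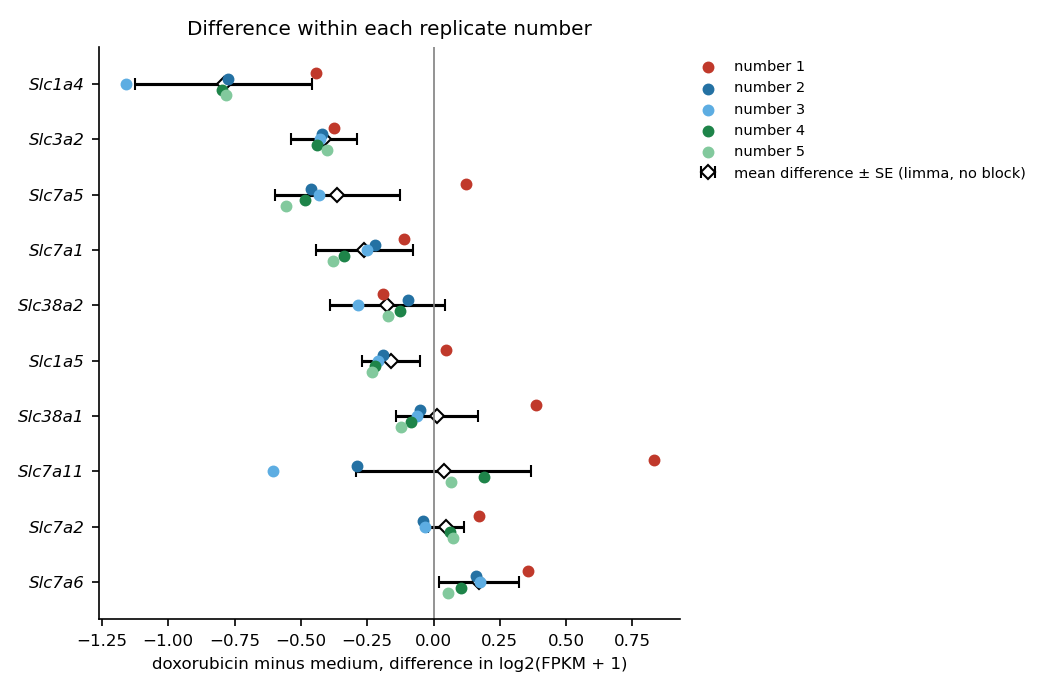
Doxorubicin minus medium in log2(FPKM + 1) (x axis) for each transporter gene (rows), with 1 coloured point per replicate number; diamonds and bars give the mean difference and its SE from limma without the block. The 5 points of Slc3a2 lie within -0.44 and -0.37, and those of Slc7a11 spread from -0.61 to 0.83.

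Slc3a2 and its light chains share a complex, so their FPKM were set against each other. The light chain genes Slc7a5, Slc7a6, Slc7a7, Slc7a8, Slc7a10 and Slc7a11 summed to 116, 121, 130.2, 144 and 142 FPKM in doxorubicin libraries 1 to 5 and to 96.7, 148, 155, 177 and 182 FPKM in medium libraries 1 to 5. Slc7a10 was listed at 0 in all 10 libraries. Slc7a5 made up 48.4% to 62.8% of that sum with doxorubicin and 53.2% to 71.9% in medium, and within every number its share was lower with doxorubicin. Slc7a11 made up 14.4% in doxorubicin 1 and 9.27% in medium 1, against 2.51% to 5.60% in the other doxorubicin libraries and 3.46% to 3.91% in the other medium libraries.

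The ratio of Slc3a2 to this sum was 0.878, 0.624, 0.627, 0.726 and 0.734 in doxorubicin libraries 1 to 5, against 1.37, 0.685, 0.710, 0.800 and 0.755 in medium libraries 1 to 5. It was lower with doxorubicin in 5 of 5 numbers, by -0.64, -0.13, -0.18, -0.14 and -0.04 on the log2 scale. The mean difference of -0.23 did not pass a two-sided exact permutation test over the 10 libraries (p = 0.341). Without medium 1 it was -0.05 (exact p = 0.698). That setting kept doxorubicin 1, whose ratio of 0.878 was the highest with doxorubicin, and so it broke the pairing of number 1. Within numbers 2 to 5 the differences ran from -0.18 to -0.04. An exact sign-flip test within numbers gave p = 0.0625, the smallest that 5 numbers allow. It counts the numbers as independent, although 2 with 3 and 4 with 5 resembled each other.

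**Figure D3:**
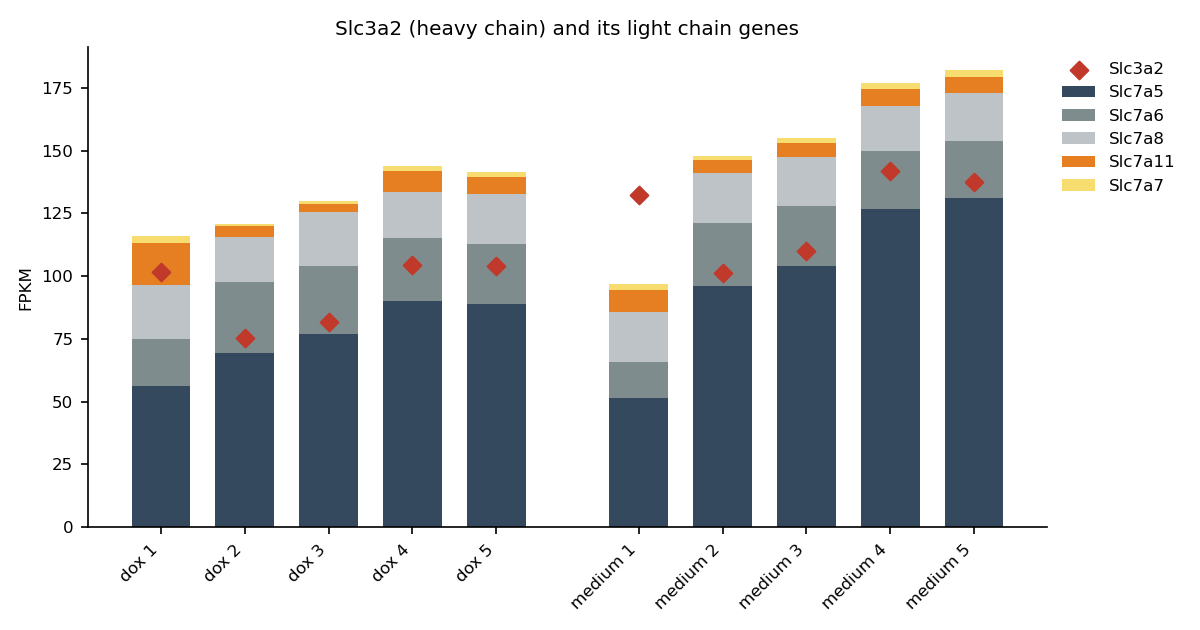
FPKM (y axis, from 0) in each library, doxorubicin (dox) on the left and medium on the right: stacked bars for the 5 light chain genes above 0 and red diamonds for Slc3a2. The diamond lies above its bar in medium 1, where the ratio was 1.37, and below it in the other 9 libraries.

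The cationic carrier genes differed from each other. Slc7a1 (CAT1), the general arginine carrier, had 39.0, 47.4, 49.1, 62.1 and 60.3 FPKM in doxorubicin libraries 1 to 5 and 42.2, 55.4, 58.7, 78.7 and 78.8 FPKM in medium libraries 1 to 5. It was lower in every number, by -0.11, -0.22, -0.25, -0.34 and -0.38 on the log2 scale in numbers 1 to 5. The mean was -0.26 (SE 0.18, limma adjusted p = 0.488; 0.0119 with the block, and between 0.00163 and 0.752 in the settings tried). The blocked call was lost without number 4 (0.0605) or number 5 (0.0601). Slc7a2 (CAT2), the carrier linked to arginine supply in activated macrophages, stayed between 4.48 and 5.50 FPKM in doxorubicin libraries and between 4.22 and 4.77 FPKM in medium libraries. Its difference of 0.05 (SE 0.07, limma adjusted p = 0.773; 0.567 with the block) passed no setting. A non-coding RNA gene on the opposite strand shares exonic bases with Slc7a2 in GENCODE M21, and the sources used here do not state whether counting used strand.

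Slc1a4 (ASCT1), a carrier of serine, alanine and cysteine, had the largest mean difference of the 10. It stood at 1.72, 1.40, 1.33, 4.40 and 4.13 FPKM in doxorubicin libraries 1 to 5, against 2.70, 3.10, 4.21, 8.38 and 7.82 FPKM in medium libraries 1 to 5. All 5 doxorubicin libraries lay below the medium library of their number, but doxorubicin 4 and 5 lay above medium 1 and 2, and so the groups overlapped. The log2 difference was -0.79 (SE 0.33, limma adjusted p = 0.251; SE 0.09 and adjusted p = 0.00222 with the block, range over all settings 0.000114 to 0.489). The log2(FPKM + 1) scale understates changes at such low levels, and with a pseudocount of 0.1 the difference was -1.03. With the block it passed whichever number was left out (adjusted p no higher than 0.0139). Numbers 2 with 3 and 4 with 5 resembled each other, so these fits are no independent checks.

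Slc1a5 (ASCT2), the main glutamine exchanger of many growing cells, had 104, 110.4, 114, 126 and 127 FPKM in doxorubicin libraries 1 to 5 and 100.4, 126, 132, 147 and 149 FPKM in medium libraries 1 to 5. Numbers 2 to 5 differed by -0.19 to -0.23 on the log2 scale and number 1 by 0.05. The mean of -0.16 (SE 0.11) passed neither fit (limma adjusted p = 0.474; 0.0577 with the block). Without number 1 it was -0.21 and passed with the block (0.00358, the lowest of all settings) but not without it (0.101). Slc1a5 also passed with library quality weights (limma adjusted p = 0.00760) and with joined sets (0.0216). Those fits called 23.3% and 19.9% of all tested genes lower. The highest adjusted p of all settings was 0.731.

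The sodium-coupled carriers SLC38A1 (SNAT1) and SLC38A2 (SNAT2) are encoded by neighbouring genes. Slc38a2, known to be induced by amino acid shortage, had 46.8, 83.6, 69.9, 98.1 and 86.0 FPKM in doxorubicin libraries 1 to 5 and 53.6, 89.5, 85.4, 107 and 96.9 FPKM in medium libraries 1 to 5. It was lower within every number, by -0.10 to -0.28 on the log2 scale, with a mean of -0.17 (SE 0.22, limma adjusted p = 0.728; 0.0283 with the block, range over all settings 0.0185 to 0.985). Without the block, leaving out doxorubicin 1 gave -0.0086, doxorubicin 4 -0.27, medium 1 -0.33 and medium 4 -0.088. Leaving out both number 1 libraries gave -0.17 (limma adjusted p = 0.315, or 0.0185 with the block). The blocked call over all 10 libraries was lost without number 3 (0.0911), 4 (0.0838) or 5 (0.0995) and with library median centring (0.0870). Slc38a1 had 25.7, 30.8, 31.7, 33.2 and 33.0 FPKM in doxorubicin libraries 1 to 5 and 19.4, 32.0, 33.1, 35.3 and 36.1 FPKM in medium libraries 1 to 5. Number 1 differed by 0.39 and numbers 2 to 5 by -0.05 to -0.12, so the mean was 0.01 (SE 0.15, limma adjusted p = 0.976; 0.913 with the block) and it was -0.08 without both number 1 libraries (0.335).

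Levels of these genes also differed between replicate numbers. In both groups Slc7a5, Slc7a1, Slc7a6, Slc1a5, Slc38a1 and Slc38a2 were lowest in number 1, and Slc7a11 and Slc7a2 were highest there. These are 6 and 2 of the 10 genes, where 35% and 21% of all tested genes were lowest and highest in number 1 in both groups. In both groups numbers 4 and 5 lay above numbers 2 and 3 for 8 of the 10, all but Slc7a6 and Slc7a2, and for 26.1% of all tested genes. The mean of numbers 4 and 5 over that of 2 and 3 was greatest for Slc1a4, at 3.12 with doxorubicin and 2.22 in medium, and for Slc7a11 it was 2.04 with doxorubicin and 1.26 in medium. The summed FPKM of the 10 genes was 416, 455, 459, 556 and 538 in doxorubicin libraries 1 to 5, against 430.2, 538, 561, 680 and 671 in medium libraries 1 to 5. What set the numbers apart was not tested.

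Most other surface carriers for amino acids were hardly detected. Of 43 further transporter genes of the surface and the lysosome in the table, 18 reached a mean of 1 FPKM. Another 14 were listed at 0 in all libraries and the other 11 did not exceed 0.371 FPKM, among them Slc7a3. Without the block limma called 0 of the 18, against 0.689% of all tested genes higher and 0.223% lower. The exact permutation test called 0 of all 9869 tested genes, so its 0 of the 18 says nothing about them. Unadjusted limma p was under 0.05 for 1 higher and 2 lower, against 6.62% and 11.2% of all tested genes. With the block 1 of 7 surface carriers was higher and 1 lower, and 1 of 11 lysosomal carriers was lower, Slc38a7 (-0.36, limma adjusted p = 0.0107 with the block). These 1 higher and 2 lower of 18 are near the blocked shares of all tested genes, 7.81% and 13.7%.

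Slc6a9, the glycine carrier GLYT1, had 5.06, 4.27, 3.39, 8.12 and 7.49 FPKM in doxorubicin libraries 1 to 5 and 5.51, 7.38, 7.82, 16.0 and 15.2 FPKM in medium libraries 1 to 5. Its log2 difference was -0.72 (SE 0.30, limma adjusted p = 0.236; 0.00729 with the block), and as with Slc1a4 number 1 had the smallest difference (-0.10). Slc6a6, the taurine carrier, had 114 to 122 FPKM in doxorubicin libraries and 101 to 109 FPKM in medium libraries. These ranges did not overlap, as was so for 6.7% of all tested genes. The log2 difference of Slc6a6 was 0.16 (SE 0.05, limma adjusted p = 0.147, or 0.0247 with the block).

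Many of the carrier genes are known to be induced by ATF4, so other genes of the ATF4 pathway were set beside them. Of 14 regulators of the amino acid stress response, 0 passed without the block (unadjusted p under 0.05 for 0 higher and 8 lower), and with it 1 was higher and 9 lower, against 7.81% and 13.7% of all tested genes. Atf4 itself had 164 ± 48.2 FPKM with doxorubicin and 259 ± 49.9 FPKM in medium (SD, n = 5 each; -0.68, limma adjusted p = 0.124; 0.000725 with the block), and Trib3 differed by -2.08, Ddit3 by -1.53, Nupr1 by -1.13 and Cebpg by -0.61 on the log2 scale (adjusted p no higher than 0.00151 with the block). Of 14 tested ATF4 target genes, mostly enzymes of amino acid synthesis, 0 passed without the block (unadjusted p under 0.05 for 0 higher and 11 lower). With the block 11 were lower, against 13.7% of all tested genes. Unadjusted limma p was under 0.05 for 6.62% of all tested genes higher and 11.2% lower. Pck2, a mitochondrial enzyme making phosphoenolpyruvate, had 26.2 ± 9.96 FPKM with doxorubicin and 61.9 ± 18.8 FPKM in medium (SD, n = 5 each; -1.24), and Aldh1l2 differed by -1.17, Cth by -1.21, Aldh18a1 by -0.68 and Asns by -0.66 (adjusted p no higher than 0.000250 with the block). List medians were -0.65 for the regulators and -0.66 for the targets, beside -0.17 for the 10 carriers.

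Pattern likeness was measured as the root mean square distance between the 5 within-number log2 differences of 2 genes. Slc1a4 was the 1 carrier with a mean difference of at least 0.5 in size, and its nearest genes were Gpt2, a mitochondrial alanine transaminase (distance 0.121), Glrp1 (0.157) and I830077J02Rik (0.169). Gpt2 had 6.09, 3.19, 3.32, 5.80 and 5.92 FPKM in doxorubicin libraries 1 to 5 and 9.42, 6.90, 7.40, 10.7 and 11.0 FPKM in medium libraries 1 to 5. Chosen after their values were seen, the nearest gene to Slc3a2 was Tars, a threonyl-tRNA synthetase (0.0398, with differences from -0.45 to -0.36), and the nearest to Slc7a11 was Sesn2, a stress gene that restrains mTORC1 (0.163). Sesn2 differed by 0.80, -0.35, -0.37, -0.08 and 0.12 in numbers 1 to 5. Its likeness to Slc7a11 follows from how it was picked, and in number 4 the signs differed (0.19 for Slc7a11). Genes of 1 library share its depth and handling, and these distances carry no test.

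**Figure D4:**
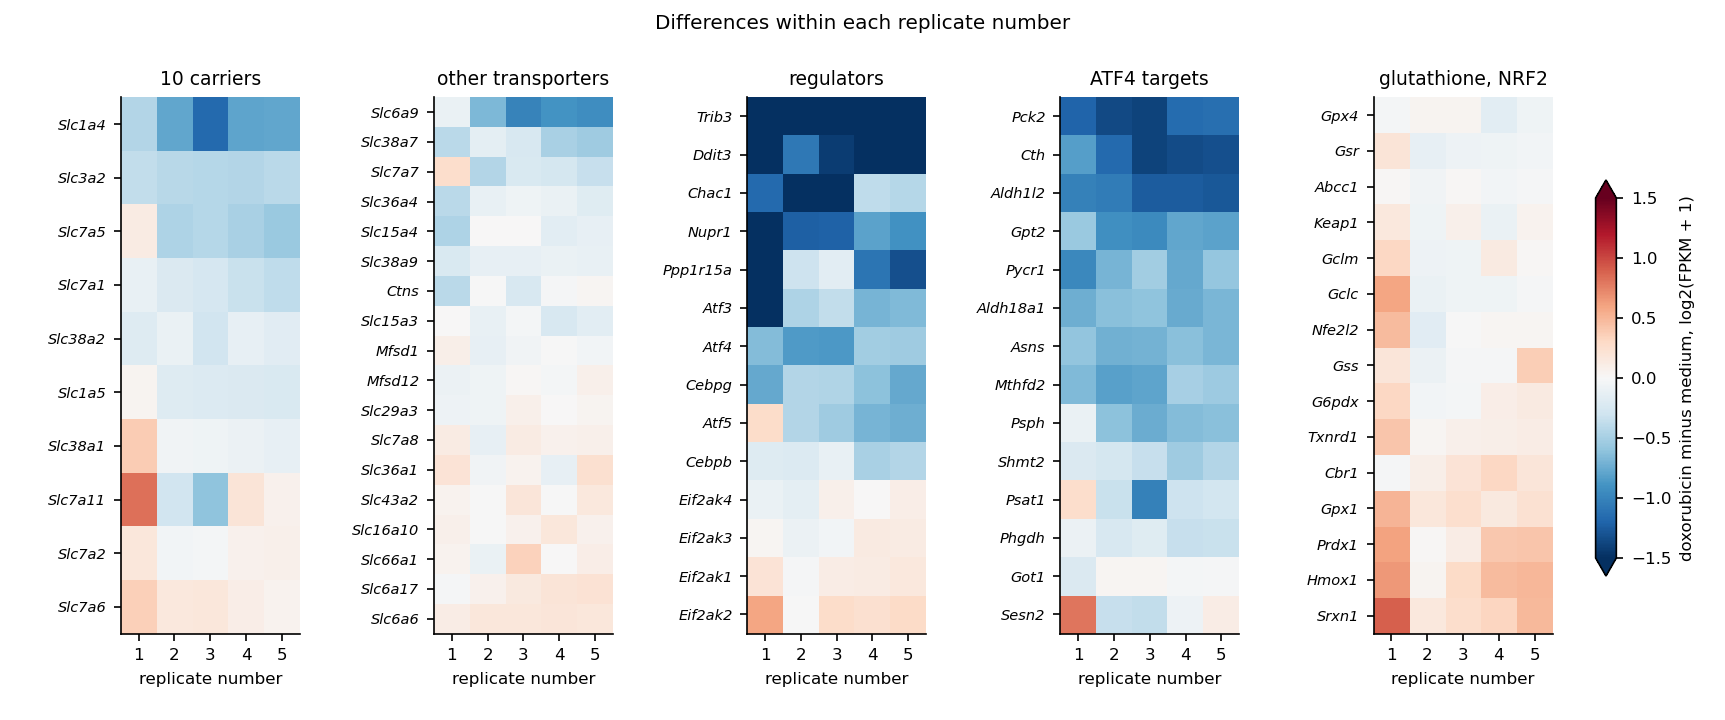
Doxorubicin minus medium in log2(FPKM + 1) within replicate numbers 1 to 5 (columns) for tested genes (rows) of 5 lists, blue for lower and red for higher with doxorubicin; colours saturate at 1.5 in either direction. Slc3a2, Slc7a1, Slc1a4 and Slc38a2 are blue in all 5 columns, as are 11 of the 14 ATF4 target genes. Of all tested genes, 23.1% were lower in 5 of 5 numbers. Slc7a11 is red in number 1 (0.83).

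Glutathione and NRF2 genes were listed because Slc7a11 supplies cystine for glutathione. Of 15 tested, 0 passed without the block. Unadjusted limma p was under 0.05 for 2 higher and 0 lower, against 6.62% and 11.2% of all tested genes. With the block 4 were higher, against 7.81% of all tested genes. These were Hmox1, the heme oxygenase gene (0.39), the glutathione peroxidase gene Gpx1 (0.26), Srxn1, for sulfiredoxin (0.42), and the peroxiredoxin gene Prdx1 (0.31), with adjusted p from 0.0151 to 0.0307 with the block. In number 1, where Slc7a11 differed by 0.83, 13 of the 15 were higher with doxorubicin with a median of 0.31. In numbers 2 and 3, 7 and 9 of the 15 were higher, with medians of -0.04 and 0.04, and in numbers 4 and 5 these were 9 and 11, with medians of 0.08 and 0.11. Over all tested genes 52% were higher in number 1 and 29.5%, 51%, 42.7% and 42.8% in numbers 2 to 5.

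Of 22 tested genes for amino acid sensing by mTORC1, the kinase complex that answers to leucine and arginine, 0 passed without the block. Unadjusted limma p was under 0.05 for 3 higher and 0 lower, against 6.62% and 11.2% of all tested genes. With the block 3 were higher and 0 lower, where 7.81% and 13.7% of all tested genes were. The 3 were the p53 target Sesn1 (0.44, limma adjusted p = 0.0113 with the block), Castor2 (0.36, 0.0239) and the lysosomal scaffold gene Lamtor4 (0.22, 0.0402). The 22 genes had a median difference of 0.00 on the log2 scale.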

How the data were processed

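Poly(A) RNA of 10 RAW264.7 libraries (5 per group) had been sequenced. The deposited values are FPKM made by the authors, with 1 column per library, matched by library name. The submitters' processing notes name the build GRCm39; aligner, quantifier and annotation are not given in the sources used here. Low FPKM showed no whole-read steps, so depth is unknown and no counting interval is given. The 9869 of 22186 genes that averaged 1 FPKM or more were tested on log2(FPKM + 1) with limma 3.58.1 in R 4.3.3 (group as the only term, mean-variance trend, two-sided, Benjamini-Hochberg over all genes, threshold 0.05), checked on simulated data. Alternatives were a replicate block, joined sets, a pseudocount of 0.1, no filter, other scalings, libraries left out, quality weights and an exact permutation test. Joined sets put numbers 2 with 3 and 4 with 5 in 1 block each, with every library still counted on its own. Both groups carry replicate numbers 1 to 5 in the titles. Deviations from the group means correlated at 0.524 to 0.794 across tested genes between libraries of the same number, above 0.1 for each, so the numbers were taken to pair the libraries, although numbers 2 with 3 and 4 with 5 also correlated (0.509 to 0.692), doxorubicin 3 more closely with medium 2 than with medium 3. Promoter windows came from RefSeq by symbol (GRCm38.p6). All 10 carriers were named; of other lists, up to 5 genes past the threshold with the smallest blocked adjusted p (up to 10 for carriers), and the 3 genes nearest to a carrier with a mean difference of at least 0.5. The 10 genes and all lists were chosen with earlier results of these data known.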

Additional observations from a re-analysis of the deposited data

Results flagged for a closer look

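Among 22 sets of 5 libraries (10 carriers and the Slc3a2 ratio, each in 2 groups), 3 had 1 library far from the other 4, by Dixon's ratio of its gap to the range (critical value 0.71, which chance passes in about 1 of 20 sets). All 3 were medium replicate 1. Slc7a6 was at 14.5 FPKM there and at 23.0 to 25.0 FPKM in the other medium libraries (ratio 0.810). Slc38a1 was at 19.4 FPKM, against 32.0 to 36.1 FPKM in the others (ratio 0.755). The quotient of Slc3a2 to its light chain genes was 1.37, against 0.685 to 0.800 in the others (ratio 0.830). The 3 flags are not separate, because they share 1 library and Slc7a6 enters the quotient. Doxorubicin 1 was not flagged, but in its group it had the lowest Slc7a6 (18.8 FPKM) and Slc38a1 (25.7 FPKM) and the highest quotient (0.878). Of all tested genes, 35% were lowest in number 1 in both groups.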

How the results depend on the processing

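Settings given as higher and lower counts over all tested genes, which were 68 and 22 without the block, were 771 and 1356 with the replicate block, 1205 and 1963 with joined sets, 1420 and 828 with library median centring and the block, 1379 and 2302 with library quality weights, 283 and 273 without both number 1 libraries, and 0 and 0 in the exact permutation test. Leaving out 1 library at a time without the block gave 15 to 136 higher and 0 to 90 lower, and the most came without medium replicate 1 (136 and 90). Leaving out numbers 1, 2, 3, 4 or 5 from the blocked fit gave 1010, 727, 430, 264 and 254 higher and 1817, 822, 870, 373 and 374 lower. Of the 10 carriers, 5 were called lower with the replicate block, 6 with joined sets (and 1 higher, Slc7a6), 4 with median centring and the block (and 1 higher, Slc7a6), 5 with quality weights and 1 without both number 1 libraries. The 5 with quality weights held Slc1a5 (limma adjusted p = 0.00760) in place of Slc38a2 (0.106). Without numbers 1, 2, 3, 4 or 5 the blocked fit called 6, 4, 3, 2 and 2 of the 10 lower. A pseudocount of 0.1, no filter, rescaled libraries, median centring without the block, the permutation test and each single library left out called 0. Fewer libraries enter the fits that leave some out; otherwise the cause of these shifts was not tested. The Slc7a11 difference of 0.04 turned to -0.16 without both number 1 libraries (with and without the block) and to -0.036 with quality weights, and leaving out 1 library gave -0.26 to 0.25. The Slc38a1 difference of 0.01 turned to -0.080 without both number 1 libraries (with and without the block) and to -0.10 with quality weights, and leaving out 1 library gave -0.14 to 0.076. Both stayed above the threshold of 0.05 in all settings. Among the other carriers, leaving out 1 library without the block moved the difference by over 1.5 times for Slc7a6 (0.035 without medium 1 and 0.26 without doxorubicin 1), Slc38a2 (-0.0086 without doxorubicin 1, -0.27 without doxorubicin 4, -0.33 without medium 1 and -0.088 without medium 4), Slc7a5 (-0.59 without medium 1), Slc7a1 (-0.17 without doxorubicin 1, medium 4 or medium 5, and -0.39 without medium 1), Slc1a5 (-0.25 without medium 1) and Slc7a2 (0.0031 without doxorubicin 1 and 0.024 without medium 5). With both number 1 libraries left out the difference was 0.12 for Slc7a6 and -0.17 for Slc38a2. The 8 carriers other than Slc7a11 and Slc38a1 kept their direction in all 25 alternatives, and the Slc3a2 ratio in its 13. Centring moved the median difference of all genes from -0.03 to 0.02. Without counts, the depth behind low values such as those of Slc1a4 is unknown.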
